A study of Mus musculus with 51 samples.

Results

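The genes described here encode 10 members of the membrane carrier families through which the intestinal epithelium takes up amino acids and small peptides and passes them on to the blood: Slc6a19, Slc6a20a, Slc6a20b, Slc1a1, Slc15a1, Slc15a2, Slc7a9, Slc3a1, Slc7a7 and Slc7a8. They were chosen by gene symbol, by a rule that uses no measured value though earlier results of these data were known, and are 10 of the 14606 genes listed in at least 1 of the 6 tissue tables of the study. All 10 were listed in duodenum, jejunum and ileum, 5 in white adipose tissue (WAT), 5 in gastrocnemius muscle and 3 in liver. A table lists a gene only where it reached 1 CPM (the deposited unit, a read count scaled to the library's total) in as many libraries as the smaller group of that tissue holds, so a gene missing from a table was below that limit there.

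RNA was sequenced from male C57Bl6 mice with diet-induced obesity, 9 weeks after they underwent RYGB (Roux-en-Y gastric bypass) or were sham-operated. In RYGB the food is led from a small stomach pouch into the jejunum and no longer passes through the duodenum. All mice received an elemental liquid diet after surgery and were brought back stepwise to high-fat food, sham mice were kept at the weight of the RYGB mice by limited feeding, and all were fasted overnight and killed at 10am. The sham group is therefore itself food-restricted, and the operation and the feeding regime cannot be told apart. Duodenum, jejunum and WAT each gave 5 sham and 4 RYGB libraries, ileum gave 5 and 2, liver 4 and 5, and muscle 4 and 4, from 10 mice (5 per operation) that mostly gave several tissues. Gut RNA came from villi scraped off after cold EDTA, and the limb from which a jejunal sample was cut was not given in the sources used here. The muscle RYGB libraries carry 1 label field that names sham, and their title and surgery fields, which name RYGB, were followed.

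Protein is absorbed across the brush border in 2 forms. Free amino acids enter through carriers for particular classes of amino acid, most of them driven by sodium, and peptides of 2 or 3 residues enter together with protons. At the opposite, basolateral side of the enterocyte, exchangers release amino acids towards the blood. Slc6a19 encodes the main apical carrier of neutral amino acids, Slc6a20a a carrier of proline and related imino acids, and Slc1a1 a carrier of glutamate and aspartate. Slc6a20b is a close relative of Slc6a20a by sequence. Slc15a1 encodes the low-affinity, high-capacity peptide transporter of the gut, and Slc15a2 the high-affinity form best known from kidney and brain. The products of Slc7a9 and Slc3a1 pair as light and heavy chain of the apical exchanger of cystine and dibasic amino acids. Slc7a7 and Slc7a8 encode basolateral exchanger light chains, for dibasic and for neutral amino acids respectively, which both pair with the heavy chain encoded by Slc3a2.

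The genes lie on 7 chromosomes (GRCm38 coordinates, GENCODE annotation). Slc6a20b (chr9:123590800-123632565, minus strand) and Slc6a20a (chr9:123634770-123678885, minus strand) are neighbours with 2204 bases between them. Slc7a7 (chr14:54369442-54417780) and Slc7a8 (chr14:54722209-54781946) lie on the minus strand 304428 bases apart, and Slc15a1 (chr14:121459621-121505252, minus strand) is on the same chromosome. The others are Slc6a19 (chr13:73679745-73704865, minus strand), Slc1a1 (chr19:28835049-28913960, plus strand), Slc15a2 (chr16:36750177-36784962, minus strand), Slc7a9 (chr7:35448796-35466036, plus strand) and Slc3a1 (chr17:85028376-85064236, plus strand). The coding sequences of Slc6a20a and Slc6a20b were identical at 91.5% of 1776 aligned bases, and 631 of the 6258 windows of 50 bases in the Slc6a20b transcript occur letter for letter in that of Slc6a20a. The way the authors' counting divided reads from such stretches was not given in the sources used here, so the values of this pair, and above all the low values of Slc6a20b, are uncertain. The corresponding identities were 61.9% for Slc15a1 with Slc15a2 and 59.4% for Slc7a7 with Slc7a8, and in both pairs 0 windows were shared.

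The promoters of 5 genes whose jejunal transcripts passed the test are shown: those of the neighbours Slc6a20a and Slc6a20b, to compare the pair, those of the 2 peptide transporters, and that of Slc3a1, the only gene of the 10 with the HNF4 motif. Each run is 300 bases, from 250 before the transcript start to 50 after it, 5′ to 3′ on the strand of the gene, from RefSeq on GRCm38.p6. Capitals mark matches on either strand to short motifs of the factors HNF1, HNF4 and GATA, whose letters follow the sequences.
Slc6a20a (chr9:123678783-123679082, minus strand): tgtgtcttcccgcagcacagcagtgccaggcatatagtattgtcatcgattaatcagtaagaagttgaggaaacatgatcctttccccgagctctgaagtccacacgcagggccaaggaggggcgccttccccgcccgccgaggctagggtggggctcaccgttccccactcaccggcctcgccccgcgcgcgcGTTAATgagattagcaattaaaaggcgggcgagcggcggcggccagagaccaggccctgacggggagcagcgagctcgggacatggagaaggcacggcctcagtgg
Slc6a20b (chr9:123632489-123632788, minus strand): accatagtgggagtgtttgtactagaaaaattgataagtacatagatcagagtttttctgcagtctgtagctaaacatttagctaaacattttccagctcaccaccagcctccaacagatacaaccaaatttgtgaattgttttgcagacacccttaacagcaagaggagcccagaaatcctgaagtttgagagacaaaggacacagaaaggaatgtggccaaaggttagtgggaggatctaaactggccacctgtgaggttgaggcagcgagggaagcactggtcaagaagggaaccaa
Slc15a1 (chr14:121505205-121505504, minus strand): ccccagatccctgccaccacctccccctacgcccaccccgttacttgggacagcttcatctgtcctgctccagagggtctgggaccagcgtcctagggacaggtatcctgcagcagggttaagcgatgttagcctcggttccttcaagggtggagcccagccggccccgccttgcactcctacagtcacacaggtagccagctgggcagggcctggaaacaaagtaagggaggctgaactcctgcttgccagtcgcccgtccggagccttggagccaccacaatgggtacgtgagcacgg
Slc15a2 (chr16:36784913-36785212, minus strand): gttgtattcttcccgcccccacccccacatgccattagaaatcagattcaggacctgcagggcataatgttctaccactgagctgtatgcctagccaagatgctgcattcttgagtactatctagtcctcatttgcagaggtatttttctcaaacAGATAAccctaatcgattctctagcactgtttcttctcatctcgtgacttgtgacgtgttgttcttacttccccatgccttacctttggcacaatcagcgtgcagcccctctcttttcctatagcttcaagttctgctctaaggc
Slc3a1 (chr17:85028097-85028396, plus strand): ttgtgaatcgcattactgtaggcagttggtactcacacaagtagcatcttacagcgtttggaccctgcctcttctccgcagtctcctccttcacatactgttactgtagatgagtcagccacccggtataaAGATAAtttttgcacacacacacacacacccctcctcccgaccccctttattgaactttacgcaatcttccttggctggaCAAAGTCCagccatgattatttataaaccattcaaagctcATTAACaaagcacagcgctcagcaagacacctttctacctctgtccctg

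The Slc6a20a and Slc6a20b promoters differ far more than their coding sequences, with 126 identical bases among 282 aligned (44.7%). All 10 genes had a promoter entry. The HNF1 letters, GTTAAT, were found for 3 of the 10 genes (Slc6a20a, Slc3a1 and Slc7a7), against 7.10% of all 32851 mouse promoter windows of this length, and start at position −56 in Slc6a20a and 2 in Slc3a1, counted from the transcript start. The HNF4 letters, CAAAGTCC, were found for Slc3a1 alone, at position −39, against 1.42% of windows. The GATA letters, AGATAA, were found for 4 genes (Slc15a2, Slc7a9, Slc3a1 and Slc7a7), against 11.2%, and start at −95 in Slc15a2 and −119 in Slc3a1. The CDX letters TTTATG were found for 0 of the 10 genes, against 11.9%. The ATF4 composite letters TGATGNAA were found for Slc7a7 alone, against 3.97%. Slc7a7 has 5 such windows and Slc7a9 has 2, which gives these genes more chances of a match, and the windows of Slc7a7 overlap, so that the same site is found in more than 1 of them. No match of 1 motif overlaps a match of another motif, and a match describes the letters only.

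Deposited values are CPM, with sums of the listed genes between 978879 and 993560.1 per library, and the read depth behind them is unknown. Fold changes are differences of log2(CPM + 1), RYGB less sham, each given with its standard error (SE), and this scale understates changes of genes with low CPM. P-values are limma's, adjusted by Benjamini-Hochberg over all genes of the tissue, and set a difference against the spread between these mice. In the comparisons of segments the mouse is a block, so the spread is that within mice. The adjustment there is over the genes listed in both segments. "Rose" and "fell" are used only where the adjusted p was below 0.05. In tissue RNA, fewer cells of a type and less RNA per cell cannot be told apart. The defining villus enterocyte genes were abundant in the gut libraries, with all 10 of that list present in each segment. In 4 of the 9 duodenal libraries (sham 1, 2 and 3 and RYGB 2) pancreatic acinar markers made up more than 1% of CPM. In ileum, sham library 4 stood apart: its villus enterocyte markers summed to 18402.1 CPM and its crypt and proliferation markers to 4789.7 CPM, whereas the other sham libraries had 56391 to 63333.5 CPM of the former and 30.5 to 111.7 CPM of the latter.

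In the sham gut the 10 genes spanned more than 2 orders of magnitude per exon length. In sham jejunum Slc6a19 had the highest level per exon length, 667 ± 144 CPM per kb (SD, n = 5), followed by Slc6a20a with 529 ± 83.1, Slc15a1 with 339 ± 39.7 and Slc3a1 with 299 ± 17.0 CPM per kb. Slc7a9, Slc7a8 and Slc7a7 stood at 153 ± 18.3, 127 ± 24.4 and 122 ± 4.0 CPM per kb. Slc15a2, Slc6a20b and Slc1a1 were far lower, at 3.54 ± 1.99, 3.33 ± 1.68 and 1.71 ± 0.40 CPM per kb. The light chain Slc7a9 thus stood below its heavy chain partner Slc3a1 in each sham jejunal library, with ratios per kb between 0.467 and 0.614.

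**Figure D1:**
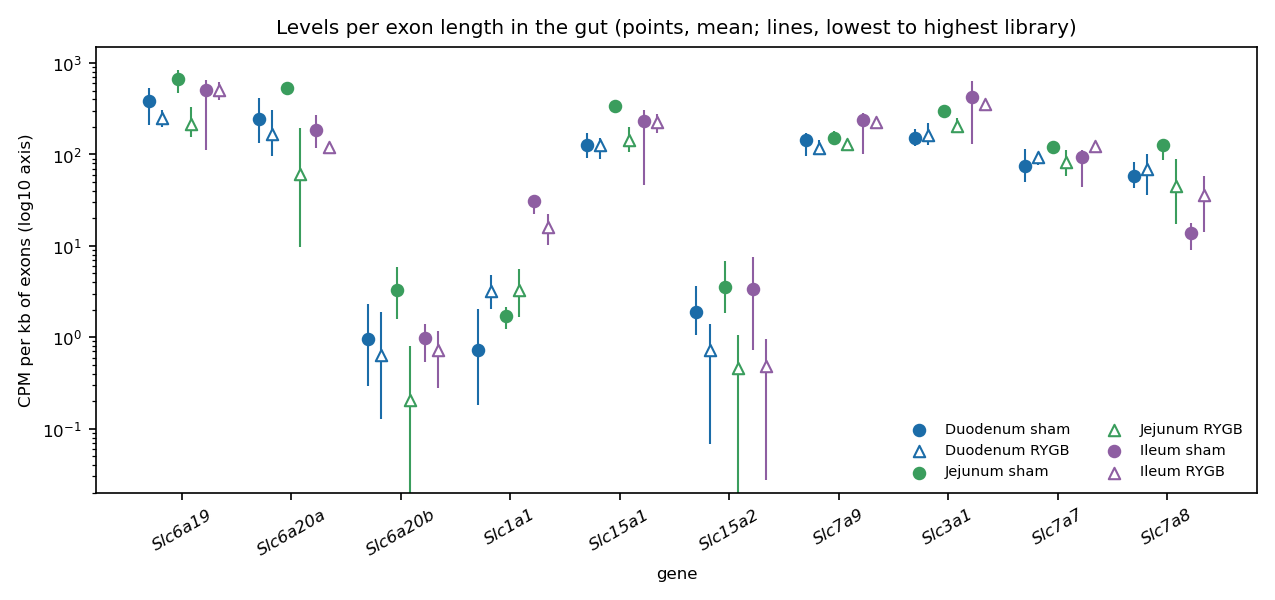
Level per kb of exons (log10 axis) of the 10 genes in sham (filled circles) and RYGB (open triangles) libraries of duodenum, jejunum and ileum, points for the group mean and lines from the lowest to the highest library (a line to the foot of the axis reaches 0). Slc6a19 led in sham jejunum at 667 CPM per kb, and Slc1a1 was the only gene of the 10 whose sham ileal libraries all lay far above those of the other segments.

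Along the sham gut 7 of the 10 genes had their highest median in the jejunum and 3 (Slc1a1, Slc3a1 and Slc7a9) in the ileum. Comparing jejunum with duodenum of the same 5 sham mice, 6 of the 10 genes were higher in jejunum (5.79% of 10663 genes tested passed in either direction, 3.54% as higher) and 0 were lower. They were Slc6a20b (1.81 ± 0.23, adjusted p = 0.001982), Slc15a1 (1.44 ± 0.16, 0.0009458), Slc6a20a (1.22 ± 0.25, 0.01961), Slc7a8 (1.14 ± 0.18, 0.006195), Slc3a1 (0.98 ± 0.15, 0.005541) and Slc7a7 (0.78 ± 0.20, 0.04626), as log2 differences with SE. Slc6a19 gave 0.85 ± 0.22 with an adjusted p of 0.05011. Sham duodenal libraries 1 to 3, from mice W11, W12 and W14, were those rich in acinar transcripts, and without these 3 mice the fit left 2 calls, for Slc15a1 and Slc6a20b.

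From jejunum to ileum of the sham mice, 3 genes were lower and 1 was higher (14.9% of 10851 genes passed, 6.52% as lower and 8.40% as higher). Slc7a8, the basolateral carrier of neutral amino acids, was lower in ileum by −3.19 ± 0.16 (adjusted p = 2.43e-05). Its sham levels were 432.5 to 732.2 CPM in jejunum and 45.6 to 90.0 CPM in ileum, with no overlap. Slc6a20a and Slc6a20b were both lower by −1.56 (SE 0.22 and 0.27, adjusted p = 0.002772 and 0.006829). Slc1a1 was higher by 4.09 ± 0.18 (adjusted p = 1.774e-05): its sham levels were 1.5, 2.7, 2.2, 6.7 and 17.0 CPM in duodenum, 17.7, 10.3, 15.5, 16.1 and 10.8 CPM in jejunum and 273.6, 299.3, 257.3, 250.7 and 185.2 CPM in ileum. The ileal range of this glutamate and aspartate carrier lay wholly above the other segments, sham library 4 included. For Slc6a19, Slc15a1, Slc7a9, Slc3a1 and Slc7a7 the sham ileal range overlapped that of an adjacent segment in the order of levels, with library 4 the lowest in each of them. Outside the gut, sham levels were highest for Slc7a8 and Slc15a2 in WAT (medians 63.0 and 37.0 CPM), and Slc15a2 was the gene whose sham libraries overlapped between each tissue and the next in the order of 6.

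In the jejunum, 7 of the 10 genes fell after RYGB and 0 rose, against 12.6% of the 11021 genes tested that passed in either direction, 6.29% as lower and 6.32% as higher. The median log2 fold change was −1.49 over the 10 genes and 0.08 over all genes. In 7 of the 10 genes each RYGB library lay below each sham library, as in 6.75% of all genes, and in 0 of the 10 above, as in 7.53%. These 7 include Slc7a7, which did not pass the test, and leave out Slc7a8, which did. Slc6a20b and Slc15a2, counted in both sets of 7, met the listing limit of 1 CPM only with their sham libraries counted. That favours lower RYGB values for them, and Slc6a20b may share reads with Slc6a20a.

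Slc6a19, the neutral amino acid carrier, stood at 3011.5, 2345.6, 4158.9, 3891.9 and 3295.5 CPM in the sham jejunum and at 879.6, 943.9, 778.8 and 1672.4 CPM after RYGB. The groups did not overlap, and RYGB library 4 was the highest of its group. The log2 fold change was −1.68 ± 0.25 (SE, adjusted p = 0.005436).

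Slc6a20a, the imino acid carrier and the neighbour with the larger signal, had the steepest fall of the 10 genes on this scale, by −4.11 ± 0.69 (adjusted p = 0.008168). It stood at 2533.6, 2477.3, 2140.3, 1822.3 and 1833.7 CPM in sham and at 75.6, 39.5, 95.8 and 794.6 CPM in RYGB jejunum. Of the RYGB libraries, 3 lay below 100 CPM and library 4 between them and the sham group. Its share of the summed level per kb of the 10 genes was 19.39% to 29.03% in sham and 1.17% to 15.18% in RYGB libraries. Slc6a20b had 33.6, 50.4, 25.2, 19.4 and 13.5 CPM in sham and 0.2, 0, 0 and 6.9 CPM in RYGB libraries, a log2 fold change of −3.93 ± 0.62 (adjusted p = 0.006668). RYGB library 4 was again the highest of its group, and the groups did not overlap.

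Slc15a1, the peptide transporter of the brush border, stood at 1717.2, 1532.5, 1382.0, 1809.4 and 1837.5 CPM in sham and at 763.2, 522.9, 521.1 and 975.4 CPM in RYGB jejunum. It fell by 1.29 on the log2 scale (SE 0.21, adjusted p = 0.006771), with no overlap. Slc15a2, the high-affinity form, stood at 29.5, 16.7, 13.7, 20.5 and 50.0 CPM in sham and at 0.2, 0, 5.5 and 7.8 CPM in RYGB libraries. It gave −3.09 ± 0.67 (adjusted p = 0.01969), also without overlap.

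The 2 chains of the cystine and dibasic exchanger had smaller changes. The heavy chain gene Slc3a1 stood at 646.1, 638.6, 676.0, 695.5 and 733.7 CPM in sham and at 397.2, 564.9, 388.7 and 500.6 CPM in RYGB jejunum, and gave −0.57 ± 0.16 (adjusted p = 0.03839). The groups did not overlap, but the call was lost when any 1 of 7 libraries was left out and with median-of-ratios scaling (adjusted p = 0.06542). The light chain gene Slc7a9 ranged from 364.1 to 489.1 CPM in sham and from 302.7 to 395.3 CPM in RYGB libraries, which overlap, and gave −0.23 ± 0.15 (adjusted p = 0.3168). The ratio of Slc7a9 to Slc3a1 per kb was 0.545 to 0.863 in RYGB jejunum, overlapping the sham range.

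Of the basolateral light chains, Slc7a8 stood at 730.8, 732.2, 636.8, 643.3 and 432.5 CPM in sham and at 144.0, 227.8, 87.2 and 445.8 CPM in RYGB jejunum. RYGB library 4 lay just above sham library 5, the others well below. The log2 fold change was −1.72 ± 0.40 (adjusted p = 0.02293), a call lost when any 1 of 5 libraries was left out. Slc7a7 ranged from 388.2 to 423.2 CPM in sham and stood at 237.9, 301.0, 192.8 and 374.0 CPM in RYGB jejunum, without overlap, and gave −0.59 ± 0.19 (adjusted p = 0.06029). Slc1a1 was the only gene of the 10 with a positive value, 0.80 ± 0.31 (adjusted p = 0.1083). It ranged from 10.3 to 17.7 CPM in sham and from 13.9 to 46.1 CPM in RYGB libraries, which overlap.

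**Figure D2:**
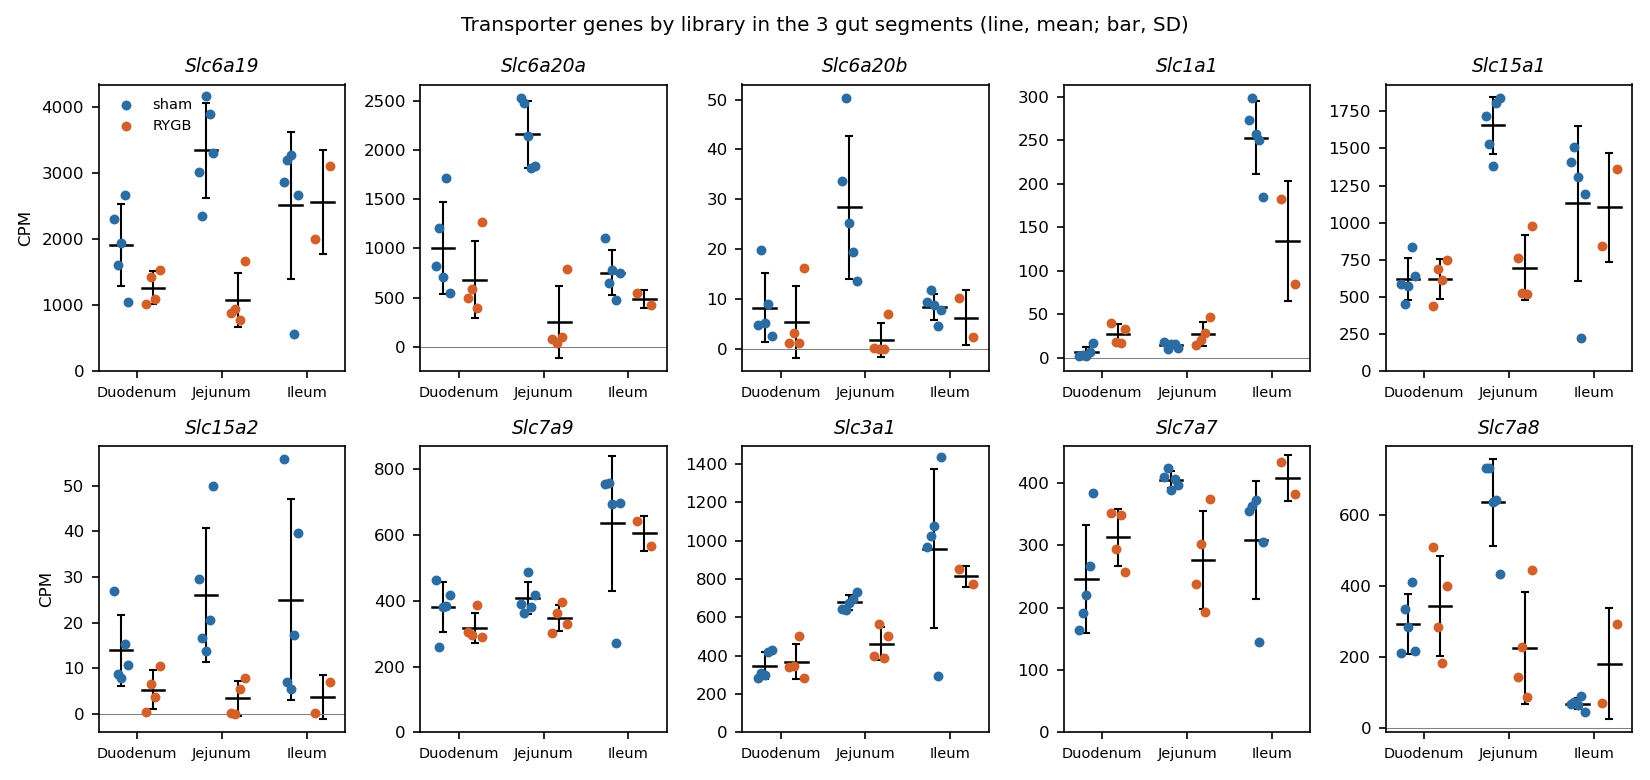
CPM of each of the 10 genes in each library of duodenum, jejunum and ileum (sham blue, RYGB orange), with the group mean as a line and the SD as a bar. In jejunum the RYGB libraries lay below the sham libraries for 7 of the 10 genes, RYGB library 4 was the highest of its group for Slc6a20a at 794.6 CPM, and ileal sham library 4 was low for several genes.

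The count of 7 in jejunum became 4 when sham library 1 or RYGB library 1 was left out, which in both cases removed Slc15a2, Slc3a1 and Slc7a8, and 8 without RYGB library 4, where Slc7a7 passed as well. Slc6a19, Slc6a20a, Slc6a20b and Slc15a1 passed whichever library was left out. Villus enterocyte markers (10 of 10 listed) summed to 35852.1 to 68422.4 CPM in sham and 52341.5 to 68195.1 CPM in RYGB jejunum, so their RYGB range lay within the sham range, and 1 of the 10 passed the test, as higher (Krt20). Crypt and proliferation markers (10 of 12, without Ccnb1 and Ascl2) summed to 38.0 to 83.7 CPM in sham and 61.8 to 298.8 CPM in RYGB libraries, with RYGB libraries 3 and 4 the highest and 0 of 10 past the test. Immune markers (8 of 10, without Cd79a and Cd68) summed to 55.7 to 191.2 and 69.5 to 392.6 CPM, and 1 of the 8 rose (Cd14). Genes typical of the distal gut (3 of 5, without Fabp6 and Fgf15) summed to 163.9 to 217.4 CPM in sham and 236.2 to 325.3 CPM in RYGB jejunum, without overlap, and 2 of the 3 rose (Slc10a2 and Ostb). Slc10a2 met the listing limit of 1 CPM only with its RYGB libraries counted, which favours a higher RYGB value. Genes typical of the proximal duodenum (3 of 5, without Pdx1 and Cybrd1) summed to 20.5 to 41.4 CPM in sham and 6.8 to 186.9 CPM in RYGB jejunum, and 0 of the 3 passed. The part of these differences in the transporter values was not tested.

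The transcripts of the partner proteins of these carriers did not move as a group in the jejunum: of 8 measured, 1 rose, 2 fell and 5 did not pass (of all genes 6.32% rose and 6.29% fell). Slc3a2, the heavy chain needed by the products of Slc7a7 and Slc7a8, fell from 643 ± 166 to 282 ± 128 CPM (log2 fold change −1.26 ± 0.29, adjusted p = 0.02106). Anpep, an aminopeptidase that associates with the neutral amino acid carrier, fell by 1.13 on the log2 scale (SE 0.31, adjusted p = 0.03902). Slc9a3, the sodium-proton exchanger that maintains the proton gradient used by the peptide transporter, rose from 89.0 ± 10.1 to 630 ± 377 CPM (2.56 ± 0.41, adjusted p = 0.006893).

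Among 17 other amino acid transporters of the plasma membrane measured in jejunum, 4 rose, 3 fell and 10 did not pass (of all genes 6.32% rose and 6.29% fell), with a median of −0.10. The ones that rose had low levels: Slc7a5, a carrier of large neutral amino acids, went from 0.84 ± 0.42 to 4.38 ± 1.72 CPM (1.51 ± 0.28, adjusted p = 0.01005), and Slc7a1, a carrier of cationic amino acids, from 9.66 ± 2.67 to 24.3 ± 8.64 CPM (1.22 ± 0.28, adjusted p = 0.02045). Slc38a1, a glutamine carrier, and Slc1a4, a carrier of alanine, serine and cysteine, rose by 1.45 ± 0.33 and 1.19 ± 0.32. Slc7a5 and Slc1a4 met the listing limit of 1 CPM only with their RYGB libraries counted, which favours higher RYGB values for them. Of those that fell, Slc7a15 went from 499 ± 80.6 to 145 ± 98.3 CPM (−2.02 ± 0.39, adjusted p = 0.01321) and Slc43a2, a facilitative carrier of large neutral amino acids, from 1206 ± 186 to 572 ± 271 CPM (−1.17 ± 0.26, adjusted p = 0.02022). The third was Slc16a10, an aromatic amino acid carrier of the basolateral membrane named after its values were seen, at −1.58 ± 0.44 (adjusted p = 0.04041).

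In jejunum 6.29% of all genes fell and 6.32% rose. Of 7 lysosomal amino acid and peptide transporters, 3 fell and 0 rose (median −0.39): Slc36a1 by 0.96, Slc38a9 by 1.08 and Ctns by 0.61 on the log2 scale. Of 11 brush-border peptidases, which release the amino acids and small peptides that the carriers take up, 3 fell and 0 rose (median −0.77). Besides Anpep these were Ace, from 5354 ± 734 to 1606 ± 834 CPM (−1.84 ± 0.27, adjusted p = 0.0051), and Mme, from 4220 ± 491 to 1857 ± 651 CPM (−1.24 ± 0.23, adjusted p = 0.01072).

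In the duodenum, which food bypasses after RYGB, 0 of the 10 genes passed limma's test, against 0.348% of 10930 genes, 0.128% as higher and 0.220% as lower. At an unadjusted p below 0.05 there were 2, Slc1a1 and Slc15a2, against 22.7% of all genes. Slc15a2 met the listing limit here only with its sham libraries counted, which favours a lower RYGB value. All 10 genes overlapped between the groups, whereas in 5.88% of all genes each RYGB library lay above and in 1.69% below the sham libraries. The median over the 10 genes was −0.12, with 5 below 0 and 5 above, and 0.15 over all genes. Median-of-ratios scaling moved that all-gene median by 0.16, after which Slc15a1 and Slc3a1 turned from 0.01 and 0.08 to −0.17 and −0.10.

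Slc6a19 stood at 2300.6, 1601.0, 1939.5, 2664.7 and 1049.9 CPM in sham and at 1007.9, 1419.1, 1094.8 and 1528.9 CPM in RYGB duodenum. Sham library 5 lay among the RYGB libraries and the other 4 above them, and the log2 fold change was −0.55 ± 0.27 (adjusted p = 0.252). Slc15a1 ranged from 451.5 to 837.8 CPM in sham and from 438.0 to 744.9 CPM in RYGB, a difference of 0.01 ± 0.22 (adjusted p = 0.988). Slc6a20a had 547.0 to 1712.2 CPM in sham and 393.0 to 1266.5 CPM in RYGB (−0.58 ± 0.38, adjusted p = 0.3873).

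Slc1a1 stood at 1.5, 2.7, 2.2, 6.7 and 17.0 CPM in sham and at 39.9, 17.9, 16.8 and 32.6 CPM in RYGB duodenum. Sham library 5 alone reached the RYGB range, exceeding RYGB library 3 by 0.2 CPM, and the value was 2.30 ± 0.53 (adjusted p = 0.06258). It passed when sham library 5 (adjusted p = 0.004913) or RYGB library 3 (0.02612) was left out. The remaining 6 genes also had overlapping groups. They were Slc15a2 (−1.44 ± 0.54), Slc6a20b (−0.83 ± 0.65), Slc7a9 (−0.24 ± 0.20), Slc3a1 (0.08 ± 0.21), Slc7a8 (0.18 ± 0.30) and Slc7a7 (0.40 ± 0.24).

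Of the cell type and segment markers in the duodenum, Mcm2, Alpi and Akp3 passed the test, where 0.348% of all genes did. Acinar markers (16 of 16 listed) summed to 64.7 to 88017.6 CPM in sham and 21.6 to 15081.2 CPM in RYGB libraries, ranges that overlap, and 0 of the 16 passed limma's test, adjusted or unadjusted. Without the 4 acinar-rich libraries, 0 genes passed again, and Slc15a1, Slc3a1 and Slc7a7 gave −0.32, −0.21 and −0.02. Crypt markers (9 of 12, without Ccnb1, Cdk1 and Ascl2) summed to 31.7 to 46.9 CPM in sham and 50.0 to 791.2 CPM in RYGB, without overlap, and 1 of the 9 rose (Mcm2). Villus enterocyte markers (10 of 10) summed to 29046 to 62387.1 CPM in sham and 31949.4 to 53658.2 CPM in RYGB, within the sham range, and 1 of the 10 fell, the brush-border phosphatase gene Alpi, from 3307 ± 792 to 1188 ± 433 CPM (adjusted p = 0.04874). Genes typical of the proximal duodenum (5 of 5) summed to 1811.5 to 7653.3 CPM in sham but 31.6 to 533.4 CPM in the libraries labelled RYGB duodenum, and 1 of the 5 fell, Akp3, from 3206 ± 1993 to 80.0 ± 108 CPM (adjusted p = 0.03715). Their part in the transporter values was not tested. The partner genes, 16 other plasma membrane transporters, 6 lysosomal transporters and 11 peptidases included 0 past the threshold. Among the partners, Anpep stood at 3668 ± 2962 and 6527 ± 1340 CPM (1.14 ± 0.45, adjusted p = 0.1711).

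The difference between the segments was tested directly in the 8 mice (5 sham and 3 RYGB) that gave both. The RYGB minus sham difference was lower in jejunum than in duodenum for 4 of the 10 genes, against 2.40% of 10663 genes in either direction, 1.88% in this one and 0.525% in the other. They were Slc6a20a (−3.32 ± 0.58, adjusted p = 0.02236), Slc6a20b (−2.92 ± 0.41, 0.009143), Slc7a8 (−1.82 ± 0.35, 0.02355) and Slc15a1 (−1.31 ± 0.27, 0.02847). Slc6a19 gave −1.0 ± 0.33 and did not pass (adjusted p = 0.1182). The count fell to 1 without sham mouse W12, to 2 without W14, R2 or R4, and to 0 without the 3 sham mice with acinar-rich duodenal libraries, where the 4 values remained between −3.02 and −1.18.

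In the ileum only 2 RYGB libraries were held, and limma's test passed 0 of the 10 genes and 0% of 12041. At an unadjusted p below 0.05 there were 2 of the 10, Slc1a1 and Slc15a2, and 438 of all genes (3.6%). Slc15a2 met the listing limit here only with its sham libraries counted, which favours a lower RYGB value. Slc6a19 stood at 2862.9, 3193.3, 3267.1, 562.9 and 2664.3 CPM in sham and at 1995.1 and 3110.3 CPM in RYGB ileum, and Slc15a1 at 1408.1, 1512.5, 1306.3, 224.0 and 1193.3 against 841.9 and 1364.0 CPM. Sham library 4 was the lowest for both, and leaving it out turned Slc6a19 from 0.22 to −0.26, Slc15a1 from 0.18 to −0.33 and Slc7a9 from 0.02 to −0.26.

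Slc1a1, high in this segment, had 182.5 and 85.1 CPM in RYGB libraries, both below the sham libraries (−1.0 ± 0.33, adjusted p = 0.9999), as in 4.94% of all genes. Slc7a7 had 433.1 and 381.5 CPM, both above the sham range of 145.0 to 373.0 CPM (0.48 ± 0.39, adjusted p = 0.9999), as in 3.15% of all genes. Slc7a8 had 70.9 and 293.2 CPM against 45.6 to 90.0 CPM in sham, so that 1 RYGB library lay far above and 1 within the sham range (1.09 ± 0.50). Genes typical of the distal gut (5 of 5 listed) summed to 1408.2 to 3271.4 CPM in sham ileum, and 0 of the 5 passed the test. In the RYGB libraries they summed to 559.6 and 3742.3 CPM, so that 1 lay below and 1 above the sham range. The part of this difference in the Slc1a1 and Slc7a8 values was not tested. The neighbours Slc6a20a and Slc6a20b gave −0.59 ± 0.34 and −0.57 ± 0.59 and Slc3a1 gave −0.07 ± 0.56, each with overlapping groups. Of 9 partners, 21 other transporters, 6 lysosomal transporters and 10 peptidases, 0 passed. Anpep was the most abundant partner, at 20890 ± 8234 and 17518 ± 2553 CPM.

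**Figure D3:**
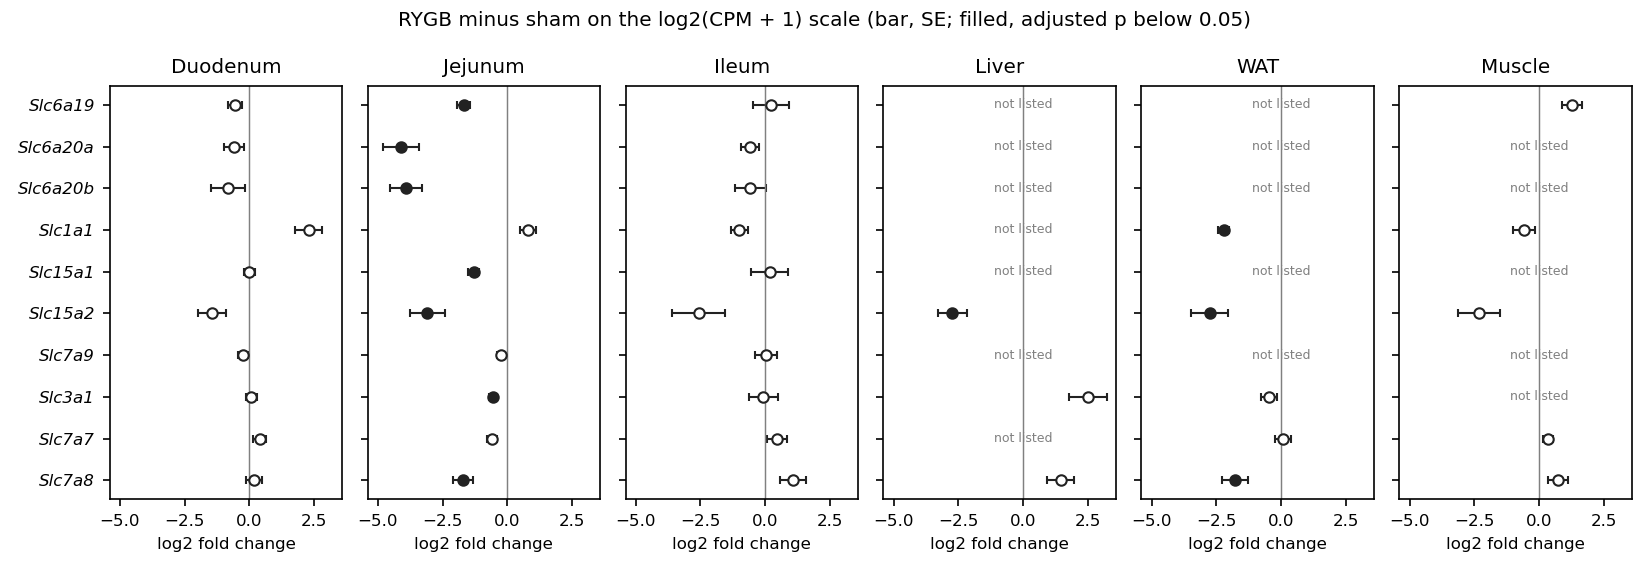
Log2 fold change (RYGB minus sham, log2(CPM + 1) scale) with SE for the 10 genes in the 6 tissues, filled where the adjusted p was below 0.05. Filled points are 7 in jejunum, 1 in liver and 3 in WAT, all below 0, and Slc15a2 lay below 0 in each of the 6 tissues.

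Outside the gut, 5 or fewer of the 10 genes were listed in each tissue. In WAT, 3 of the 5 listed genes fell and 0 rose, where 40.6% of 12690 genes passed in either direction, 26.3% as lower and 14.3% as higher, so the count stands against a background in which change was common. The balance of that background depends on scaling: 3341 genes were lower and 1812 higher without it, and 2593 and 2681 with median-of-ratios scaling. Slc1a1 stood at 14.8, 21.0, 20.5, 24.2 and 17.4 CPM in sham and at 3.5, 2.5, 5.0 and 2.9 CPM in RYGB fat, without overlap (−2.21 ± 0.21, adjusted p = 8.776e-05), like Slc15a2, described last, against 22.0% of all genes that lay wholly lower and 11.7% wholly higher. Slc7a8 stood at 63.0, 90.2, 62.1, 66.1 and 43.5 CPM in sham and at 12.4, 69.8, 13.5 and 7.7 CPM in RYGB fat. RYGB library 2 lay within the sham range and the other 3 far below it (−1.79 ± 0.50, adjusted p = 0.01619).

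Slc7a7 (1.5 to 7.6 CPM in RYGB) and Slc3a1 (0.2 to 2.6 CPM in RYGB) overlapped the sham fat and did not pass, with 0.06 ± 0.31 and −0.47 ± 0.31. Adipocyte markers (6 of 6) summed to 7832.1 to 9405.5 CPM in sham and 9837.7 to 32902.8 CPM in RYGB fat, and 5 of 6 hepatocyte markers (without Serpina1c) to 481.7 to 1591.5 and 2793.1 to 16502.3 CPM, where Cyp2e1 alone rose, Alb fell (−0.99, adjusted p = 0.03247) and Ttr, Apoa2 and Fgb gave negative values that did not pass. Most of the adipocyte sum in RYGB fat came from Cfd, while Lep fell from a mean of 1654 to 30.2 CPM. Smooth muscle and stroma markers (8 of 8) summed to 1613.4 to 2712.7 and 688.7 to 3809.2 CPM: 3 fell (Acta2, from 719 ± 306 to 42.9 ± 19.5 CPM, Tagln and Pdgfra) and 1 rose (Des). Of immune markers (9 of 10, without Cd79a), which summed to 519.9 to 815.2 and 580.6 to 1135.3 CPM, 2 fell (Cd68 and Csf1r) and 1 rose (Cd14). Their part in the transporter values was not tested. Among 22 other plasma membrane transporters in fat, 3 rose and 8 fell (of all genes 14.3% rose and 26.3% fell), with a median of −0.36. Slc1a4 went from 16.0 ± 2.41 to 2.33 ± 0.28 CPM (−2.35 ± 0.17, adjusted p = 2.547e-05), the taurine transporter gene Slc6a6 from 469 ± 102 to 166 ± 45.1 CPM (−1.50 ± 0.22, adjusted p = 0.0007376), and Slc36a2, a proton-coupled carrier of small neutral amino acids, from 138 ± 56.0 to 434 ± 120 CPM (1.69 ± 0.28, adjusted p = 0.001225). Of 7 lysosomal transporters, 1 rose (Slc66a1) and 1 fell (Slc36a1), and of 6 partners 1 fell (Anpep).

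In liver 3 genes were listed and 1 fell, Slc15a2, where 4.63% of 10285 genes passed, 2.60% as lower and 2.03% as higher. Slc3a1 stood at 17.7, 27.5, 12.2 and 7.8 CPM in sham and at 104.3, 382.4, 184.5, 40.0 and 17.7 CPM in RYGB liver. RYGB libraries 1 to 4 lay above all sham libraries and RYGB library 5 equalled sham library 1 (2.50 ± 0.73, adjusted p = 0.05935). It passed without RYGB library 5 (adjusted p = 0.02082) or RYGB library 1 (0.04737). Slc7a8 ranged from 0.2 to 2.5 CPM in sham and from 1.4 to 12.2 CPM in RYGB (1.45 ± 0.51, adjusted p = 0.08263), and like Slc3a1 it overlapped between the groups, whereas 4.34% of all genes lay wholly higher. In liver Slc7a8 met the listing limit of 1 CPM only with its RYGB libraries counted, which favours a higher RYGB value.

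Immune cell and macrophage markers (8 of 10, without Cd3e and Cd79a) summed to 195.9 to 309.5 CPM in sham liver. They summed to 930.8, 668.9, 1135.5, 464.1 and 199.6 CPM in RYGB libraries 1 to 5, and 2 of the 8 rose (Csf1r and Lyz2). RYGB library 5 was the lowest both in these and in Slc3a1, whereas library 3 was the highest in these and library 2 in Slc3a1. Hepatocyte markers (6 of 6) summed to 30358.3 to 44810.2 CPM in sham and 39875.2 to 114480.3 CPM in RYGB liver, and 2 of the 6 rose (Fgb and Serpina1c). The part of these cells in the Slc3a1 values was not tested. Of 16 other plasma membrane transporters in liver 1 fell, the glutamate carrier gene Slc1a2 (−1.14 ± 0.30, adjusted p = 0.0499), and 0 rose (of all genes 2.60% fell and 2.03% rose). Of 6 partners, 6 lysosomal transporters and 4 peptidases 0 passed.

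In muscle 5 genes were listed, of which limma's test passed 0, as it passed 0% of all 11594 genes. At an unadjusted p below 0.05 there were 2 of the 5, Slc6a19 and Slc15a2, and 812 of all genes (7%). Slc6a19 met the listing limit of 1 CPM only with its RYGB libraries counted, which favours a higher RYGB value. Slc15a2 met it only with its sham libraries counted, which favours a lower one. The 2 counts are therefore not a like comparison. Slc6a19 stood at 1.2, 0.1, 0.3 and 0 CPM in sham and at 4.7, 3.5, 1.3 and 0.8 CPM in RYGB muscle (1.27 ± 0.38, adjusted p = 0.5928), values near the filter limit whose groups overlap. Slc1a1 (−0.57 ± 0.42), Slc7a7 (0.35 ± 0.18) and Slc7a8 (0.75 ± 0.39) also overlapped between the groups, as did Slc15a2, whereas 1.96% of all genes lay wholly lower and 1.91% wholly higher. Slc7a7, too, met the listing limit only with its RYGB libraries counted. The sets of 6 partners, 19 other plasma membrane transporters, 6 lysosomal transporters and 5 peptidases held 0 past the threshold in muscle.

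Slc15a2 and Slc7a8 were the genes listed in all 6 tissues, and of the pair only Slc15a2 had a negative fold change in each, although it passed the test in 3 of them. The values were −1.44 ± 0.54 in duodenum (adjusted p = 0.1492), −3.09 ± 0.67 in jejunum (0.01969), −2.57 ± 1.04 in ileum (0.9999), −2.74 ± 0.57 in liver (0.03766), −2.76 ± 0.71 in WAT (0.01085) and −2.30 ± 0.82 in muscle (0.6127). The tissues come from the same mice and are not independent. Outside WAT, Slc15a2 met the listing limit of 1 CPM only with its sham libraries counted, which favours a lower RYGB value. In liver it stood at 25.1, 10.7, 7.2 and 17.5 CPM in sham and at 0, 0, 3.3, 2.0 and 3.0 CPM in RYGB libraries. In WAT it stood at 68.6, 37.0, 25.8, 27.0 and 89.4 CPM in sham and at 1.2, 1.4, 19.7 and 16.4 CPM in RYGB libraries. The groups did not overlap in liver, where 8.01% of all genes lay wholly lower, in WAT or in jejunum, and overlapped in duodenum, ileum and muscle. The liver call was lost with a pseudocount of 0.1 in place of 1 (adjusted p = 0.05486) and when any 1 of 6 of the 9 libraries was left out.

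Arranged by mouse rather than by tissue, the lowest Slc15a2 values of the RYGB group and the highest of the sham group came from a pair of mice each. RYGB mouse R1 had between 0 and 1.2 CPM in its 4 tissues and R2 between 0 and 1.4 CPM in its 6 tissues. R3, R4 and R5 ranged from 3.3 to 19.7, 2.0 to 16.4 and 3.0 to 10.4 CPM over their tissues, with medians of 6.0, 5.5 and 7.4 CPM. Among sham mice, W11 ranged from 25.1 to 68.6 CPM and W3 from 10.7 to 89.4 CPM, with medians of 31.05 and 35.6 CPM. W12, W14 and W15 ranged from 6.9 to 37.0, 5.4 to 25.8 and 7.2 to 27.0 CPM, with medians of 8.8, 10.7 and 16.3 CPM. The ranges of the sham mice therefore overlapped. In each of the 6 tissues R1 or R2 was the lowest RYGB mouse (both at 0 in liver), and W11 or W3 the highest sham mouse. These levels are a description, with no test of the mouse differences.

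**Figure D4:**
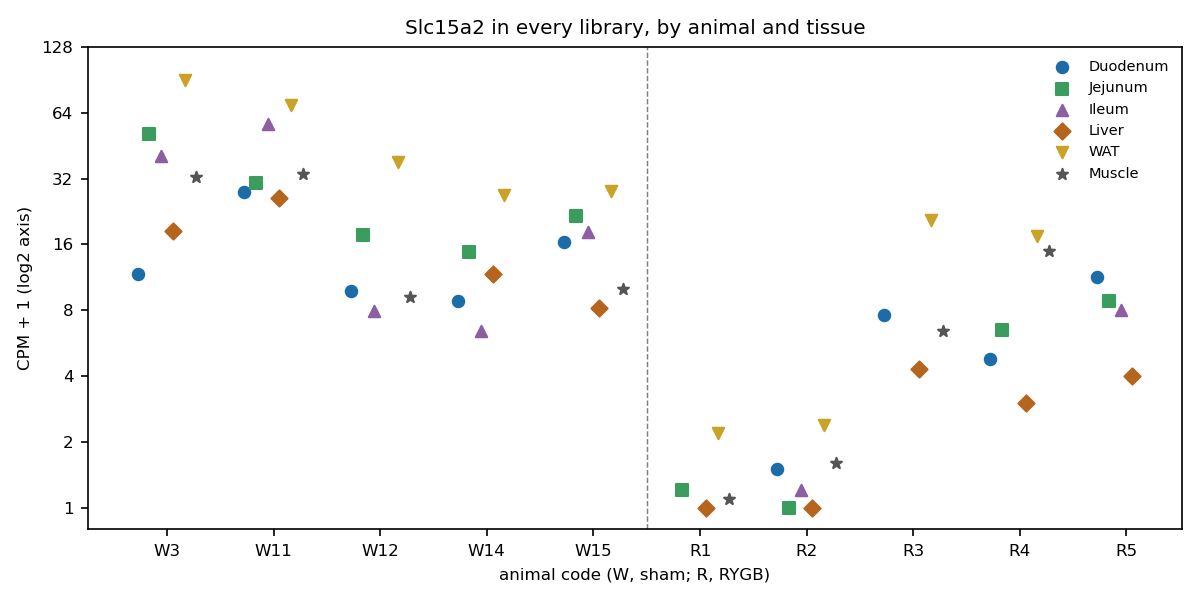
Slc15a2 as CPM + 1 (log2 axis) in each library, grouped by animal code (W sham, R RYGB) with 1 symbol per tissue. R1 and R2 lie at or below 1.4 CPM in each tissue they gave, and W11 and W3 reach 68.6 and 89.4 CPM in WAT.

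Across the 25 gut libraries, which share mice and segments, the genes that varied most like Slc6a19 on the log2(CPM + 1) scale, among 8712 compared, were Gal3st2 (Pearson r = 0.90), Phlpp2 (0.887), Abhd12 (0.867), Olfr165 (0.865) and Slc43a2 (0.859). For Slc15a1 they were Phlpp2 (0.876), Slc43a2 (0.875), Dpp4 (0.867), Slc6a19 (0.859) and Gal3st2 (0.839). Dpp4 encodes a brush-border peptidase. Among the 10 genes themselves the closest pairs were the neighbours Slc6a20a and Slc6a20b (r = 0.909), whose counts may share reads, Slc6a19 and Slc15a1 (0.859), and the exchanger chains Slc7a9 and Slc3a1 (0.83). Slc1a1 and Slc7a8, whose sham levels differ in opposite directions between jejunum and ileum, had r = −0.651. These correlations describe the libraries and include the differences between segments.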

How the data were processed

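The values are gene-level CPM deposited by the authors, 1 table per tissue, made from reads counted with HTSeq (version not given) on build GRCm38, per the submitters' processing notes. The aligner, the annotation release and the strand setting were not given in the sources used here. Each library's group comes from its title and surgery label, and mice from the codes in the descriptions. Repeated lines (339 in ileum, 374 in WAT) and lines without an identifier (2 in ileum, 6 in liver) were left out. No 2 libraries held identical values. Read counts were not used, since depth is unknown.

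Surgery was tested per tissue with limma 3.58.1 in R 4.3.3 (lmFit, then eBayes with a trended and robust prior) on log2(CPM + 1), two-sided, over all genes of the table, and p-values were adjusted by Benjamini-Hochberg (threshold 0.05). Segments were compared with the mouse as a block, paired by the codes. Levels per kb use the union of GENCODE vM21 exons. Promoters and coding sequences were compared in Python 3.11.15 with Biopython 1.88. The fits were tested on simulated data.

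The 10 genes and the lists were chosen with earlier results of these data known. All 10 were eligible to be named in each tissue that lists them. Of each list, up to 6 genes past the threshold in a tissue were eligible to be named, by adjusted p, or up to 2 with the highest CPM where none passed. For likeness, the 5 highest correlations with Slc6a19 and with Slc15a1 were taken, among genes with a mean of at least 5 CPM.

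Alternatives were a pseudocount of 0.1, median-of-ratios scaling, a mean of at least 5 CPM, limma's library weights, a block on the replicate number, leaving out each library or mouse, and the duodenum without acinar-rich libraries. The replicate block used only libraries whose number occurs in both groups. The segment comparisons without mice whose duodenal libraries were acinar-rich were added after seeing the data.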

Additional observations from a re-analysis of the deposited data

Results flagged for a closer look

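Of the 76 groups of 4 or 5 libraries tested for a library far from the others, 10 held one (chance flags about 1 in 20). In ileum, sham library 4 was far below the rest for Slc6a19 (562.9 CPM, next 2664.3), Slc15a1 (224.0, next 1193.3) and Slc7a9 (270.6, next 695.2). RYGB library 4, from mouse R5 in both segments, was far above the others for Slc6a20a in jejunum (794.6 CPM, next 95.8) and for Slc6a20b in jejunum (6.9, next 0.2) and duodenum (16.2, next 3.2). RYGB library 2, from mouse R2 in both tissues, was far above the others for Slc7a8 in WAT (69.8 CPM, next 13.5) and in muscle (49.4, next 14.8), and for Slc1a1 in muscle (20.2, next 7.7). RYGB library 3 was far above the others for Slc7a9 in duodenum (386.4 CPM, next 304.2).

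The difference between RYGB and sham differed between jejunum and duodenum, by limma's interaction term, for Slc6a20a (−3.32), Slc6a20b (−2.92), Slc15a1 (−1.31) and Slc7a8 (−1.82).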

How the results depend on the processing

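The count of genes past the threshold, 7 in jejunum, was between 4 and 8 when each library was left out in turn. The other ranges were 0 to 1 for the count of 0 in duodenum, 0 to 3 for the 1 in liver, 3 to 4 for the 3 in WAT, 4 to 6 for the 6 between sham jejunum and duodenum, 4 to 6 for the 4 between sham ileum and jejunum, and 1 to 4 for the 4 that differed between segments. Ileum and muscle kept 0. Library weights gave 1 in duodenum (Slc1a1) and 3 in liver, and a pseudocount of 0.1 gave 0 in liver. Without the mice with acinar-rich duodenal libraries the counts were 2 between sham segments and 0 for the difference in surgery. The cause was not tested.

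Replicate numbers name different mice in the groups, and the deviations of same-numbered libraries correlated between −0.352 and 0.556. Differently numbered libraries were not compared, so whether same-numbered libraries share more than a number was not tested. With the replicate number as a block, only numbers present in both groups were kept. That left out sham library 5 in duodenum, jejunum and WAT, RYGB library 5 in liver, and sham libraries 3, 4 and 5 in ileum. The counts were then 1 in duodenum (Slc1a1), 5 in jejunum, 1 in ileum (Slc1a1), 0 in liver, 3 in WAT and 0 in muscle. The block and the loss of libraries were not separated. Without the mouse as a block, 6 and 4 genes passed in the sham segment comparisons and 0 for the difference in surgery.

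Signs turned as follows. Scaling gave −0.17 for Slc15a1 and −0.096 for Slc3a1 in duodenum and 0.036 for Slc3a1 in ileum. Library weights gave −0.020 for Slc7a8 in duodenum, −0.27, −0.36 and −0.28 for Slc6a19, Slc15a1 and Slc7a9 in ileum, and −0.073 for Slc7a7 in WAT. The replicate block, fitted in ileum without sham library 4 and the other sham libraries lacking a same-numbered RYGB library, gave −0.28, −0.45 and −0.33 for the same 3 genes. Without acinar-rich libraries Slc15a1, Slc3a1 and Slc7a7 gave −0.32, −0.21 and −0.023 in duodenum, and Slc7a9 −0.0014 between the sham segments. Leaving out a library turned, within these ranges, Slc15a1 (−0.097 to 0.17), Slc3a1 (−0.078 to 0.19) and Slc7a8 (−0.044 to 0.45) in duodenum, Slc6a19 (−0.26 to 0.54), Slc6a20b (−1.42 to 0.29), Slc15a1 (−0.33 to 0.53), Slc7a9 (−0.26 to 0.11) and Slc3a1 (−0.45 to 0.12) in ileum, Slc7a7 in WAT (−0.18 to 0.41) and Slc7a9 in the difference between segments (−0.049 to 0.13). Depth is unknown, and 2 RYGB libraries limit the ileum.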
